A study of Mus musculus with 2 samples.

Results

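The genes described here are 10 immediate early genes of the AP-1 and EGR group, Fos, Fosb, Fosl1, Fosl2, Jun, Junb, Jund, Atf3, Egr1 and Ier2, out of 32285 genes in the count tables. They were chosen by name, with earlier results of these data known, and all 10 were found. Shares of all genes set beside their counts are therefore a description only. Single cells were profiled from tumours grown in C57BL/6 mice from MC38, a mouse colon carcinoma line. The RSPO3-OE library came from MC38 cells that overexpress RSPO3, a secreted protein that strengthens Wnt signalling, and the Ctrl library from control MC38 cells. The submitters call both tumours xenografts, although the host and the MC38 line are both mouse. Nothing in the sources used here gives the mice per library, their age, the site or age of the tumour, the vector, or whether a line is 1 clone. With 1 library per group, no difference between groups has a replicate behind it and no test was made. Cells of a library are not replicates, and every interval is a 95% interval that covers counting error only.

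AP-1 is a dimer of proteins that share a basic leucine zipper, the DNA binding and pairing domain. JUN proteins (Jun, Junb, Jund) pair with each other or with FOS proteins (Fos, Fosb, Fosl1, Fosl2), while FOS proteins need a JUN partner, and Atf3 is a related zipper protein that can act as a repressor. Egr1 is a zinc finger factor that binds GC-rich sites, and Ier2 is a short nuclear protein without a zipper. Immediate early genes are transcribed within minutes of growth factor, cytokine or stress signals from factors already present in the cell, such as SRF with its ELK partners at the Fos gene, and their transcripts decay quickly. Fosl1 and Fosl2 usually follow later than Fos and Fosb, and Jund is present at a steady level in many resting cells. The same genes are also known to respond to the dissociation of tissue. Per the labels, the tumours were digested on ice, and how the handling of the tumours compared was not tested.

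Most of the 10 genes stood higher together in tumour cells, so the 250 bases before the start site are shown for 4 that did, Fos, Fosb, Junb and Atf3, and for Jun, which differed less, read on the gene's own strand from RefSeq promoters of GRCm38.p6. The set of RefSeq promoters used here held 7 of the members, and Fosl1, Egr1 and Ier2 are named only. Capitals mark matches to the letters searched on both strands: TGACG, the core of the CRE that CREB and ATF proteins read, TGACGCAA and TGACATCA, sites like a CRE, GCGGGGGCG, the EGR site, and TATAAA, the TATA box. TGACG lies inside TGACGCAA.
Fos, chr12:85473640-85473889, plus strand: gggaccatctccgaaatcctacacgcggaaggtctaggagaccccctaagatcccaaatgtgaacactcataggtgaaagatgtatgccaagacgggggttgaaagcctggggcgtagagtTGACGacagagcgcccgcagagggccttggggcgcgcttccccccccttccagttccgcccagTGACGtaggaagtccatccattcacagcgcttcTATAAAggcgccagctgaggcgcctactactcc
Fosb, chr7:19310046-19310295, minus strand: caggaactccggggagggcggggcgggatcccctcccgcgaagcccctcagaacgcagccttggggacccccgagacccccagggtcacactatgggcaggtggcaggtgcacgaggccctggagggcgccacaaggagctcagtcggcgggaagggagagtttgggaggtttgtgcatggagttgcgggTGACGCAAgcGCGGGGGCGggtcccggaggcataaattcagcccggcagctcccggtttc
Junb, chr8:84978749-84978998, minus strand: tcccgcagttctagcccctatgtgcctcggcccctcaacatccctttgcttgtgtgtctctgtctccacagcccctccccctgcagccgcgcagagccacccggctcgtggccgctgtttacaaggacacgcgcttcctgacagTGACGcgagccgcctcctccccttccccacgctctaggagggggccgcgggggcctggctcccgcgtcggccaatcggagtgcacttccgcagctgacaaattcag
Atf3, chr1:191183334-191183583, minus strand: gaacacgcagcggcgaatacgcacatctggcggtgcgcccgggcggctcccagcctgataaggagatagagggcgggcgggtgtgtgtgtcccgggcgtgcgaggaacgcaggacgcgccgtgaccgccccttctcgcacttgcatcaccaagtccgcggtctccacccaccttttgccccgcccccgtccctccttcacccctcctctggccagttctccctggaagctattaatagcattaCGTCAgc
Jun, chr4:95052223-95052472, minus strand: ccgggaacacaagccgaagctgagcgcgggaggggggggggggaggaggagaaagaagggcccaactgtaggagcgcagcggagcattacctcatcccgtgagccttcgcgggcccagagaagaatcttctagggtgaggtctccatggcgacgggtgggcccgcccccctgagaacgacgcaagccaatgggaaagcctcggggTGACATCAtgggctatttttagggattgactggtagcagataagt

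Counted back from the start site, Fos held TGACG at positions -129 and -66 and a TATA box at -33. Fosb held TGACGCAA at -60 and an EGR site at -50, and Junb held TGACG at -106. In Atf3 the TGACG match at -7 lay on the opposite strand, where it reads CGTCA. Jun, the one of the 5 that differed by less than 1.5-fold, held TGACATCA at -45 and no TGACG. The window of Fosl2, a gene that was at least 1.5-fold higher, held no TGACG either but an EGR site at -79. That of Jund held none of the letters searched. By the gene coordinates used here, however, the Jund window ended well before the gene's start and did not adjoin it. It therefore says little about the bases just before that start. The windows of Fosl2 and Atf3 lay inside the gene's span, so they belong to a start other than the outermost. Among 32851 promoter windows of this length, 17.8% held TGACG, 0.438% TGACGCAA, 2.93% TGACATCA, 2.57% the EGR site and 12.4% the TATA box. The full CRE TGACGTCA (1.55% of windows), the AP-1 site TGANTCA (6.75%) and the CArG box bound by SRF (1.47%) had no match in the members' windows, which says only that these letters are not in these 250 bases. A match is a description of letters, not a binding site.

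The libraries held 7314 barcodes with 155615189 UMIs (RSPO3-OE) and 7301 barcodes with 143881763 UMIs (Ctrl), and shared 7 barcodes. A UMI tags 1 captured transcript. After filtering, 6993 and 6895 cells were kept, with medians of 18915 and 16627 UMIs. Cells were classed by raw UMIs. Tumour cells had Ptprc, the pan-leukocyte gene, at 0 and at least 1 UMI of Hmga2 (4201 RSPO3-OE and 4316 Ctrl cells). Macrophages had at least 20 UMIs of C1qa, C1qb and C1qc (1180 and 1164), T cells at least 2 of Cd3d, Cd3e and Cd3g (406 and 203), and neutrophils at least 20 of S100a8 and S100a9 (81 and 14). Cells in no class were 15.6% and 17.2% of those kept. Rspo3 gave 12368 UMIs, 107 CPM, UMIs scaled to a common total per class, in RSPO3-OE tumour cells and 0 in Ctrl ones, where 0 UMIs allow up to 0.0283 CPM.

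The classes were checked against their markers. In tumour cells the epithelial genes Epcam (0 UMIs in both libraries) and Krt18 (0.451 and 0.349 CPM in RSPO3-OE and Ctrl) were absent or near 0. Krt8 stood at 540 against 87.1 CPM. The 6 fibroblast markers summed to 3669 against 2472 CPM there. Uty, Kdm5d, Eif2s3y and Ddx3y, which are Y-linked, summed to 0.364 and 0.189 CPM, against 155 and 96.4 CPM in macrophages. The class is therefore best read by its rule, as Hmga2-positive cells without Ptprc. The 10 macrophage markers summed to 34731 and 41011 CPM in macrophages, with none at 0 UMIs, and the 10 T cell markers to 6969 and 5877 CPM in T cells. In neutrophils the 8 neutrophil markers summed to 105700 and 49487 CPM, with Ly6g at 7 and 0 UMIs. The fibroblast markers summed to 102 and 1722 CPM there, and 4 monocyte markers to 224 and 2085 CPM. The neutrophils of the libraries were thus not alike in these markers. The immune classes held some cells that also carried Hmga2, the tumour gene. These were 64 and 39 macrophages (7.20% and 4.28% of the class's UMIs), 18 T cells in each library (9.17% and 29.2%), 2 RSPO3-OE neutrophils (2.18%) and 1 Ctrl neutrophil that alone held 44.4% of its class's UMIs. Immune values are therefore given with and without these cells, a choice made after their values were seen.

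Levels are the UMIs of a gene summed over the cells of a class, divided by all UMIs of that class and scaled to CPM. Each UMI marks 1 captured 3' end, so transcript length does not enter. In tumour cells the 10 genes together took 1.09% of all UMIs in RSPO3-OE and 0.645% in Ctrl. A total of 7 members stood at least 1.5-fold higher in RSPO3-OE and 0 at least 1.5-fold lower. Of 15188 genes with at least 10 UMIs over both libraries, 13.3% were that much higher and 17.0% that much lower. The median log2 ratio (RSPO3-OE over Ctrl) of the members was 1.05, against -0.09 for all these genes. Mitochondrial transcripts took 2.84% of tumour cell UMIs in RSPO3-OE and 4.02% in Ctrl, and the median depth was 25382 against 21438 UMIs. Their part in the difference was not tested beyond the splits given further on. A class's CPM rises when more of its cells hold a gene's transcript and when that transcript takes a larger share of a cell's UMIs. Cells with more UMIs weigh more in it. The spread between cells is described after the levels.

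Among the FOS proteins, Fos, the founding member, reached 1582 CPM (1575 to 1590) in tumour cells of the RSPO3-OE library and 696 CPM (691 to 701) in those of Ctrl. The intervals lay apart, and the log2 ratio was 1.18 (lower bound 1.17). Fosb, whose protein is close to Fos, stood at 733 against 345 CPM, a log2 ratio of 1.09 (1.07 to 1.11). The pair named for later induction, Fosl1 (FRA1) and Fosl2 (FRA2), was far lower. Fosl1 stood at 123 against 89.6 CPM, with a log2 ratio of 0.46 (0.42 to 0.49) that did not reach 1.5-fold. Fosl2 stood at 53.0 against 33.1 CPM, a log2 ratio of 0.68 (0.62 to 0.74). All 4 FOS genes were thus higher in the RSPO3-OE library, Fos and Fosb the most.

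The JUN genes differed from each other. Junb, which can hold back Jun as well as pair with FOS proteins, had the highest ratio of the 10 genes. Its level was 1889 CPM (1881 to 1897) against 728 CPM (723 to 733), a log2 ratio of 1.38 (1.36 to 1.39). Jun was the most abundant member in both libraries, at 2518 against 2027 CPM, with a log2 ratio of 0.31 (0.31 to 0.32). Jund, at 1185 against 1257 CPM, had a log2 ratio of -0.09 (-0.10 to -0.07), which was 0.01 with median-of-ratios scaling. Over single cells Jund stood lower in RSPO3-OE, with a mean of 1291 against 1564 CPM and a median of 1095 against 1212 CPM. Because the size and sign depended on the measure, no direction is given for it. With JUN family UMIs taken as a whole, Junb made up 33.8% in RSPO3-OE tumour cells and 18.1% in Ctrl. Jun made up 45.0% against 50.5% and Jund 21.2% against 31.3%. The FOS family was closer, with Fos at 63.5% against 59.8% and Fosb at 29.4% against 29.6% of its UMIs.

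The members outside these families also stood higher in RSPO3-OE tumour cells. Atf3, a stress-induced zipper protein, stood at 292 CPM (289 to 296) against 121 CPM (118 to 123), a log2 ratio of 1.28 (1.25 to 1.31). Egr1 stood at 1387 CPM (1380 to 1394) against 595 CPM (591 to 600), a log2 ratio of 1.22 (1.21 to 1.23). Ier2 stood at 1126 CPM (1119 to 1132) against 558 CPM (554 to 563), a log2 ratio of 1.01. The plot of levels by class sets these values beside those of the immune classes.

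**Figure D1:**
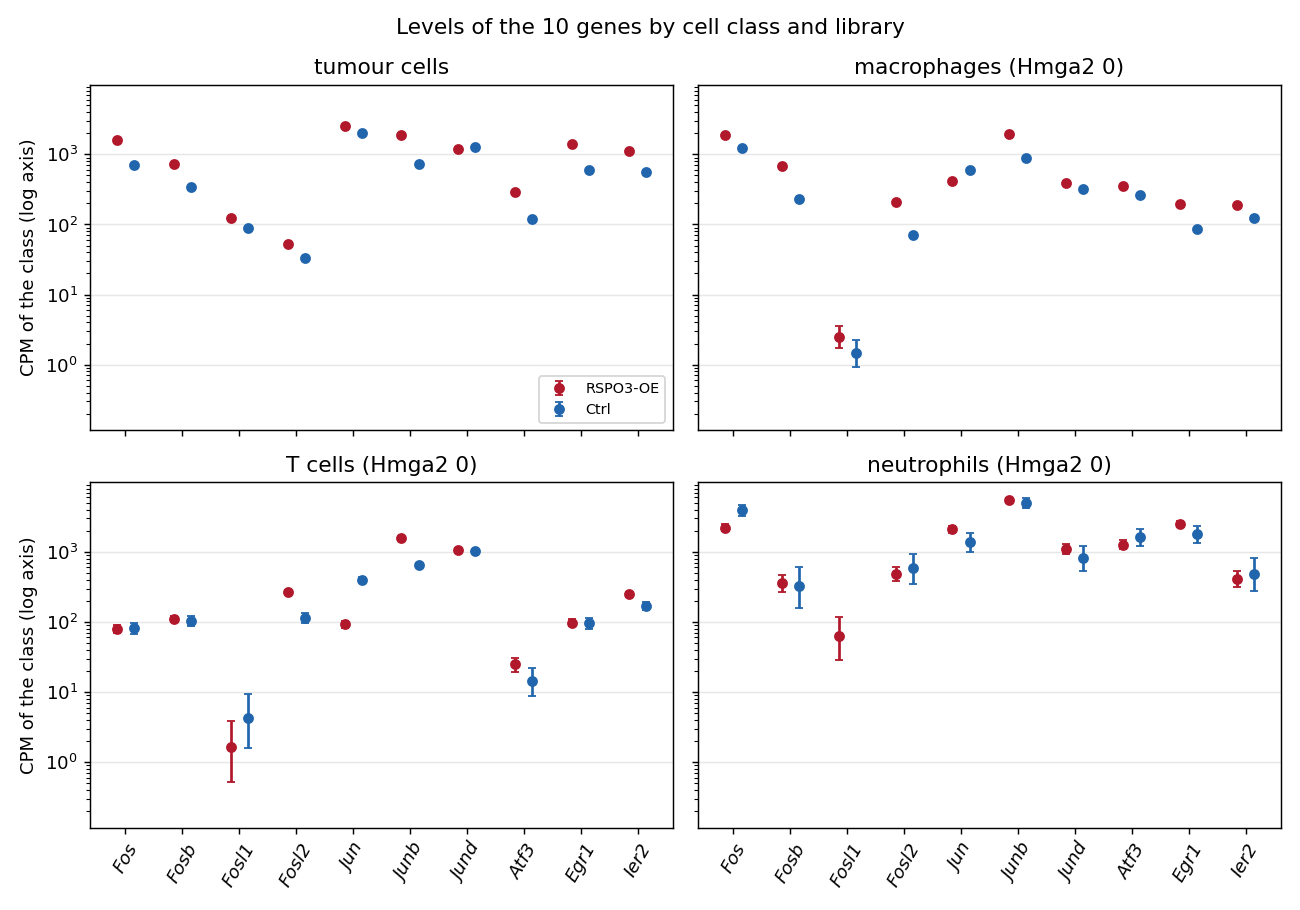
Level of each of the 10 genes (horizontal axis) in CPM of the class on a log axis (vertical), RSPO3-OE in red and Ctrl in blue, in 4 panels for tumour cells and for macrophages, T cells and neutrophils with Hmga2 at 0. Bars are 95% Poisson intervals, 1 library per group, and a gene with 0 UMIs has no point; in tumour cells all genes except Jund lie higher in RSPO3-OE, and in T cells Jun lies at 92.5 against 398 CPM.

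The members differed in how many tumour cells held a UMI and how unevenly the UMIs were spread. Jun was found in 99.6% of RSPO3-OE and 99.7% of Ctrl tumour cells, and Jund in 99.5% and 99.8%. Atf3 was found in 76.1% (74.8 to 77.4) of tumour cells in RSPO3-OE, against 46.7% (45.2 to 48.2) in Ctrl. With each cell thinned to 1000 UMIs, which removes the difference in depth, the Atf3 shares were 20.1% and 9.48%. Junb was found in 78.2% and 44.7% of thinned cells, Fos in 59.7% and 36.9%, and Egr1 in 67.5% and 40.6%. Jun, in contrast, was found in 80.9% and 78.1% of thinned cells. The share for Fosl1 was 79.5% against 60.4% unthinned and 10.4% against 8.34% thinned. In macrophages, where a level near that of free tumour RNA is read as background, the unthinned Fosl1 share was 3.39% and 2.06%.

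All 10 genes were detected in 38.8% of RSPO3-OE tumour cells and 13.7% of Ctrl ones, with medians of 9 and 8 genes per cell at unequal depth. Summed over the 10 genes, the median cell held 9999 CPM against 6037 CPM, and the tenth and ninetieth percentiles were 4402 and 21214 CPM against 1963 and 16212 CPM. The distributions thus overlapped widely, while the lower end lay higher in RSPO3-OE. For Junb the shift was large relative to the spread, since the lower quartile of RSPO3-OE cells, 1166 CPM, lay at the upper quartile of Ctrl cells, 1160 CPM. For Jun the medians were 2127 and 1870 CPM, and the ninetieth percentile was lower in RSPO3-OE, at 5003 against 5498 CPM. The most uneven member was Atf3, with 50.2% of its UMIs in the tenth of RSPO3-OE cells that held the most, and 65.4% in Ctrl. Junb was the most even in RSPO3-OE, with 22.4% against 35.0% in Ctrl. After thinning to 5000 UMIs per cell, the variance over the mean, which is 1 for counting noise alone, was 11.2 for Fos in RSPO3-OE and 11.3 in Ctrl, 7.41 and 10.6 for Jun, and 1.39 and 1.63 for Fosl1.

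**Figure D2:**
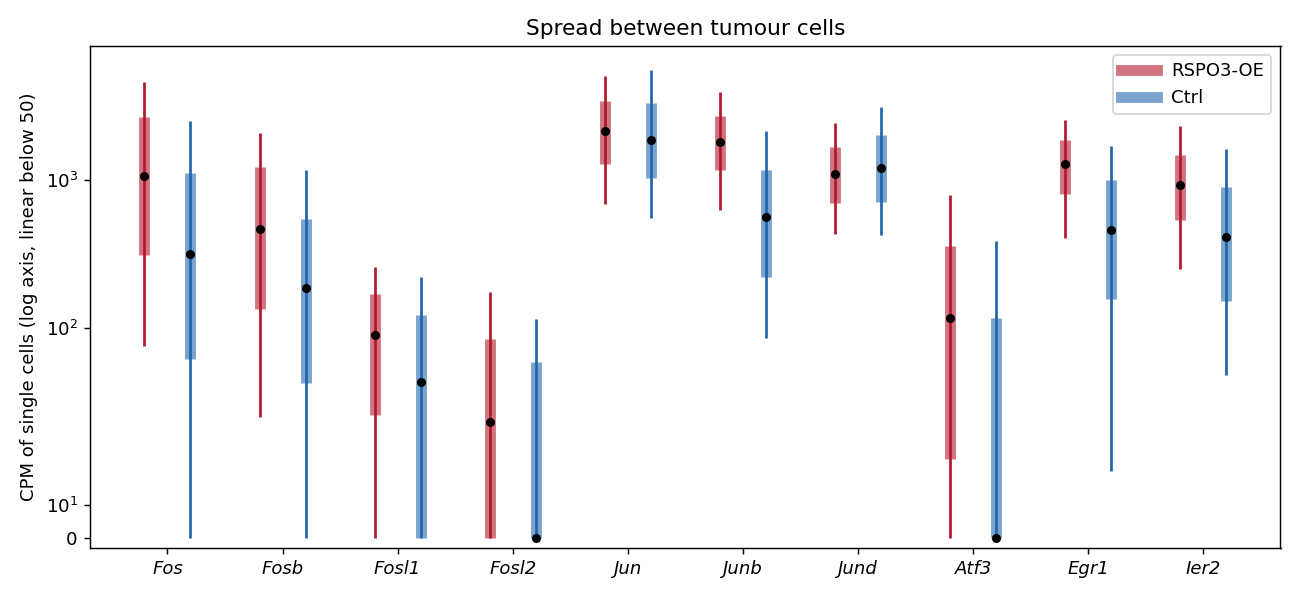
CPM of single tumour cells (vertical, log axis that is linear below 50) for each gene, RSPO3-OE in red and Ctrl in blue; points are medians, thick bars span the quartiles and thin lines the tenth to the ninetieth percentile, over 4201 and 4316 cells. The boxes of Junb meet only at their edges, near 1166 and 1160 CPM, while those of Jun and Jund overlap widely.

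Across tumour cells most members varied together, Fosl2 weakly so and Fosl1 not. Pearson correlations of log-normalised values are given as a description over 4201 and 4316 cells, which within a library share handling but differ in depth. With UMIs per cell (log10) the members' correlations ran from -0.31 (Fosl2) to 0.25 (Fosl1) in RSPO3-OE. In Ctrl they ran from -0.45 (Jund) to 0.17 (Fosl1). The part of depth in the values below was not tested. Fos with Fosb gave r = 0.81 in RSPO3-OE and 0.68 in Ctrl, Egr1 with Ier2 0.68 and 0.69, and Jun with Jund 0.66 and 0.71. Over pairs that leave out Fosl1 the median was 0.44 and 0.47. Fosl2 gave weaker values, 0.09 and 0.17 with Jun, 0.14 and 0.14 with Ier2 and at most 0.40 and 0.25, with Junb. Fosl1 with Fos gave -0.10 and -0.15. The genes most like the mean of the members, of 10112 ranked by the lower of the libraries' correlations, were Zfp36 (r = 0.63 and 0.62), Btg2 (0.64 and 0.61) and Dusp1 (0.73 and 0.61). Klf2, Klf4, Nfkbia, Klf6, Pnrc1 and Rhob were also among the first 10. In macrophages, over 1180 and 1164 cells and 8872 genes, Dusp1 (0.61 and 0.59) and Zfp36 (0.56 and 0.54) led, followed by Klf4, Klf6, Mcl1, Nr4a1, Btg2, Klf2, Ifrd1 and Rgs1.

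Depth and mitochondrial share were examined by splitting tumour cells of both libraries into 3 groups of low, middle and high values at common limits. The median log2 ratio of the 10 genes was 0.91, 1.08 and 1.27 in cells of low, middle and high UMI count. By mitochondrial share it was 1.28, 1.23 and 0.87. Junb stayed between 1.40 and 1.48 over the depth groups and between 1.30 and 1.65 over the mitochondrial groups. Jun did not keep 1 direction, with -0.20, 0.35 and 0.67 over the depth groups and 0.69, 0.55 and -0.16 over the mitochondrial groups. Behind this, Ctrl cells of low depth had the highest Jun level, 3336 CPM, against 2914 CPM in RSPO3-OE. At high depth Jun stood at 1503 CPM in Ctrl and 2394 CPM in RSPO3-OE. Jund likewise ran from -0.21 to 0.11 over the depth groups. Fosl2 ran the other way with depth, at 1.15, 0.78 and 0.44.

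**Figure D3:**
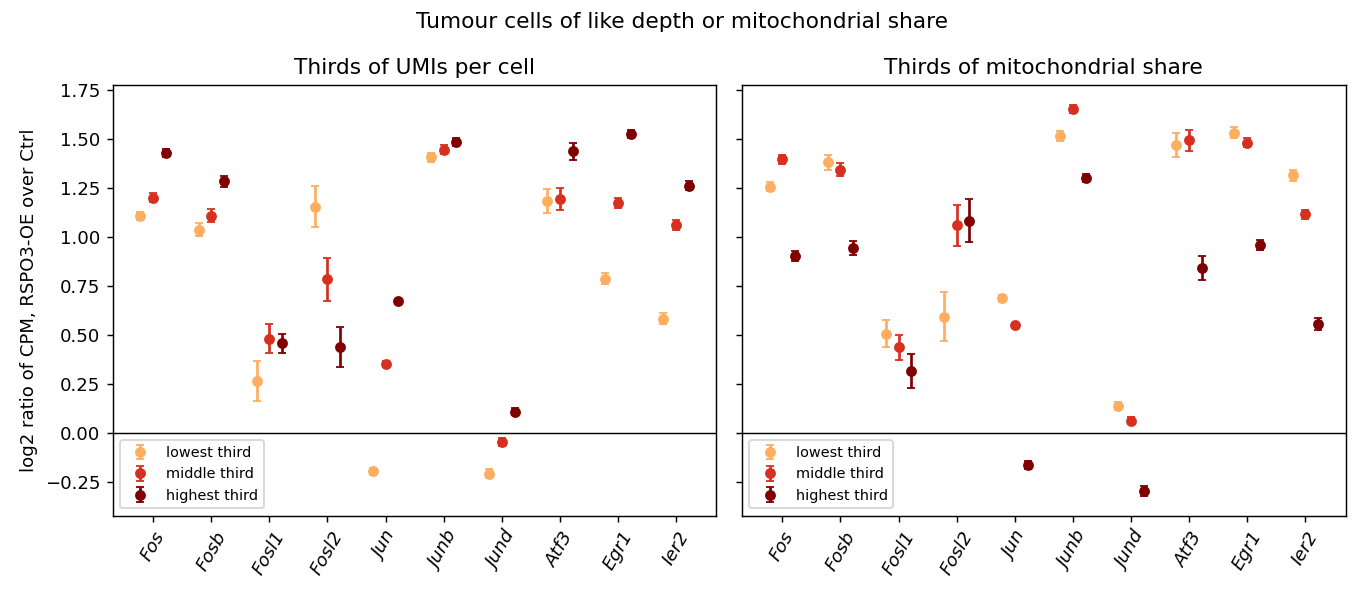
Log2 ratio of CPM, RSPO3-OE over Ctrl (vertical), of each gene in tumour cells split into 3 groups by UMIs per cell (left) and by mitochondrial share (right), at limits common to both libraries; bars are 95% counting intervals, 1 library per group. Jun crosses 0, from -0.20 to 0.67 with depth and from 0.69 to -0.16 with mitochondrial share, while Junb stays at 1.30 or above in every group.

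Dividing and non-dividing tumour cells both showed the difference. With at least 5 UMIs of the proliferation genes Mki67 and Top2a (2003 and 2116 cells) the members' median log2 ratio was 1.14, and with 0 such UMIs (1280 and 1290 cells) it was 0.89. In non-dividing cells Jun stood level, at 0.02. Within the RSPO3-OE library, the 930 tumour cells with an Rspo3 UMI were set against the 3271 without. The members' median log2 ratio between them was 0.03, with Junb at -0.27 and Fosl2 at -0.69. For the 347 cells with at least 10 Rspo3 UMIs against those without, Fosb stood at 0.61, Fos at 0.38 and Fosl2 at -1.04, and the median was 0.09. The split by Rspo3 compares cells of 1 tumour library, and cells without an Rspo3 UMI may still carry the transcript at this depth.

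Macrophages showed the difference in most members, with Jun apart. The 10 genes took 0.631% of macrophage UMIs in RSPO3-OE and 0.382% in Ctrl. Of these, 7 were at least 1.5-fold higher and 0 lower, against 11.0% and 8.56% of 12666 genes, and their median log2 ratio was 0.90 against 0.03 for all these genes. Without cells carrying Hmga2, 7 were higher and 0 lower, against 10.8% and 9.01% of 12472 genes, and the median was 0.70. Both counts include Fosl1, which gave few UMIs. With Fosl1 left out, a choice made after its values were seen, 6 of 9 were higher and the median was 0.69, or 0.62 also without cells carrying Hmga2. Markers of monocytes, which can enter this class, summed to 487 against 227 CPM over 4 genes with none at 0 UMIs. Among macrophages with 0 UMIs of the monocyte gene Ly6c2 the members' median was 0.90. The 4 red cell genes summed to 0.137 CPM in RSPO3-OE macrophages, with 2 of them at 0 UMIs, against 299 CPM in Ctrl ones, and to 0.0780 against 7.72 CPM in tumour cells. Their part in the result was not tested.

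Fosl2 and Fosb had the highest ratios of the well-covered members in macrophages. Fosl2 was at 208 CPM (200.2 to 215) against 68.9 CPM (64.8 to 73.1), a log2 ratio of 1.59 (1.49 to 1.69). Fosb stood at 670 against 232 CPM, with 1.53 (1.48 to 1.59). Fos was the most abundant FOS gene, at 1872 against 1205 CPM, with 0.63 (0.61 to 0.66). Junb, at 1926 against 896 CPM, had a log2 ratio of 1.10 (1.07 to 1.13), and Jund, at 400 against 335 CPM, one of 0.25 (0.20 to 0.31). Jun stood lower in RSPO3-OE, at 452 CPM (441 to 463) against 611 CPM (598 to 623), a log2 ratio of -0.43 (-0.48 to -0.39). It was 0.01 with doublets kept, and -0.52 (-0.57 to -0.48) without cells carrying Hmga2. Over the mitochondrial groups of macrophages, made the same way, the Jun ratio was -0.03, -0.55 and -0.90, so the difference in Jun was found in cells with middle and high mitochondrial shares.

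Egr1, at 215 against 88.2 CPM, had a log2 ratio of 1.29 (1.20 to 1.38) in macrophages, Ier2, at 205 against 127 CPM, one of 0.69 (0.61 to 0.77), and Atf3, at 357 against 258 CPM, one of 0.47 (0.41 to 0.53). Egr1 was found in fewer macrophages than the other well-covered genes, with a UMI in 47.2% (44.3 to 50.1) of cells against 36.8% (34.0 to 39.6). Fosl1 gave 62 and 28 UMIs, a log2 ratio of 1.25 (0.59 to 1.95), and without cells carrying Hmga2 34 and 22 UMIs, with 0.78 (-0.04 to 1.62). Its level over all macrophages was 3.46% and 1.99% of that in tumour cells, beside 2.35% and 2.27% for Krt8, so it is read as near the level of carried tumour RNA and its ratio is not interpreted.

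**Figure D4:**
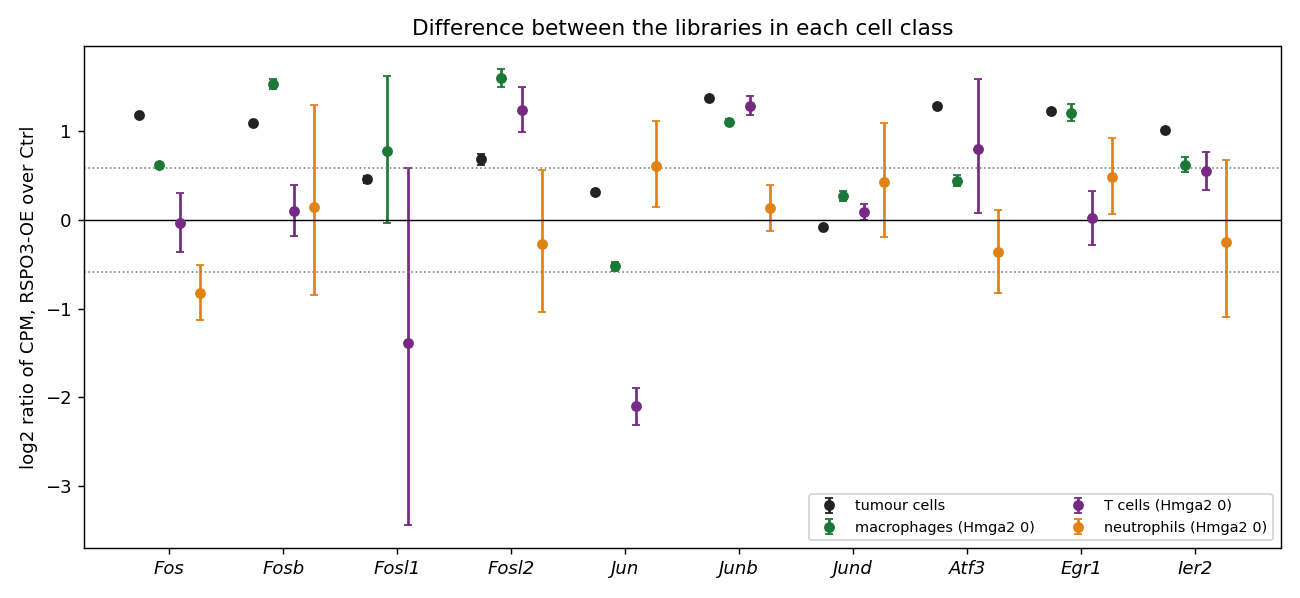
Log2 ratio of CPM, RSPO3-OE over Ctrl (vertical), of each gene in tumour cells (black) and in macrophages (green), T cells (purple) and neutrophils (orange) with Hmga2 at 0; bars are 95% counting intervals, dotted lines mark 1.5-fold, and there is 1 library per group. Junb lies above 1 in tumour cells, macrophages and T cells, while Jun runs from 0.61 in neutrophils to -2.10 in T cells; Fosl1 in Ctrl neutrophils has 0 UMIs and no point.

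T cells showed opposite values for Junb and Jun. Over all T cells 2 members were at least 1.5-fold higher in RSPO3-OE and 3 lower, against 10.0% and 18.2% of 10961 genes, with a median log2 ratio of -0.13 against -0.05. Krt8 in Ctrl T cells stood at 138% of its tumour level, and at 0 without the 18 cells carrying Hmga2. Without such cells (388 and 185 left), 3 members were higher and 2 lower, against 12.2% and 11.6% of 10184 genes, and the median was 0.09 against 0.01. Junb was at 1584 CPM (1540 to 1629) against 649 CPM (608 to 693), a log2 ratio of 1.29 (1.18 to 1.39). Jun stood at 92.5 CPM (82.1 to 104) against 398 CPM (366 to 432), a log2 ratio of -2.10 (-2.32 to -1.90). Over all T cells the Jun ratio was -2.04, and it was -0.72 with doublets kept. In thinned cells a Jun UMI was found in 8.79% of RSPO3-OE and 27.7% of Ctrl T cells.

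Fosl2 was the leading FOS gene of RSPO3-OE T cells, at 270 CPM (252 to 289) against 114 CPM (97.4 to 133), a log2 ratio of 1.24 (0.99 to 1.49). Jund, at 1080 against 1020 CPM, had a ratio of 0.08 (-0.01 to 0.17). Fos (79.2 against 81.0 CPM), Fosb (110 against 102 CPM) and Egr1 (97.1 against 95.9 CPM) had intervals that overlapped between the libraries. Ier2 stood at 248 against 170 CPM, with 0.55 (0.33 to 0.76). Atf3, the third member past 1.5-fold upward beside Junb and Fosl2, gave 76 and 20 UMIs, with 0.80 (0.08 to 1.59), and over all T cells -0.30 (-0.74 to 0.15). Fosl1, past 1.5-fold downward beside Jun, gave 5 and 6 UMIs, with an interval from -3.44 to 0.59. Of JUN family UMIs, Jun made up 3.36% in RSPO3-OE and 19.3% in Ctrl, and Junb 57.5% and 31.4%. T cells with a UMI of the heat shock genes Hspa1a or Hspa1b, near-identical copies whose split is uncertain, were 24 of 406 in RSPO3-OE and 93 of 203 in Ctrl. Among T cells with neither these nor Hmga2, the interval of the Jun ratio ran from -1.77 to -1.24, Junb stood at 1.14 and Fosl2 at 0.84. Among those with Cd8a, the killer T cell gene, and without Cd4 or Hmga2, Jun stood at -2.40, Junb at 1.14 and Fosl2 at 1.22.

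Neutrophils gave few cells, and 1 of the 14 in Ctrl moved most values. Over all of them 5 members were at least 1.5-fold higher and 0 lower, against 34.9% and 32.9% of 2088 genes. Without cells carrying Hmga2 (79 and 13 left), 1 member was higher and 1 lower, against 32.7% and 25.1% of 1758 genes, and the members' median log2 ratio went from 0.57 to 0.13. Fos was then at 2207 CPM (1971 to 2464) against 3909 CPM (3241 to 4675), and over all cells at 2173 against 2248 CPM. Jun stood at 2089 CPM (1860 to 2339) against 1368 CPM (986 to 1849), intervals that lay apart by little. Junb, the highest member, stood at 5449 against 4984 CPM with overlapping intervals. Fosl1 gave 9 UMIs in RSPO3-OE, 62.5 CPM, and 0 in Ctrl, where 0 UMIs allow up to 97.7 CPM, so no ratio is given.

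**Figure D5:**
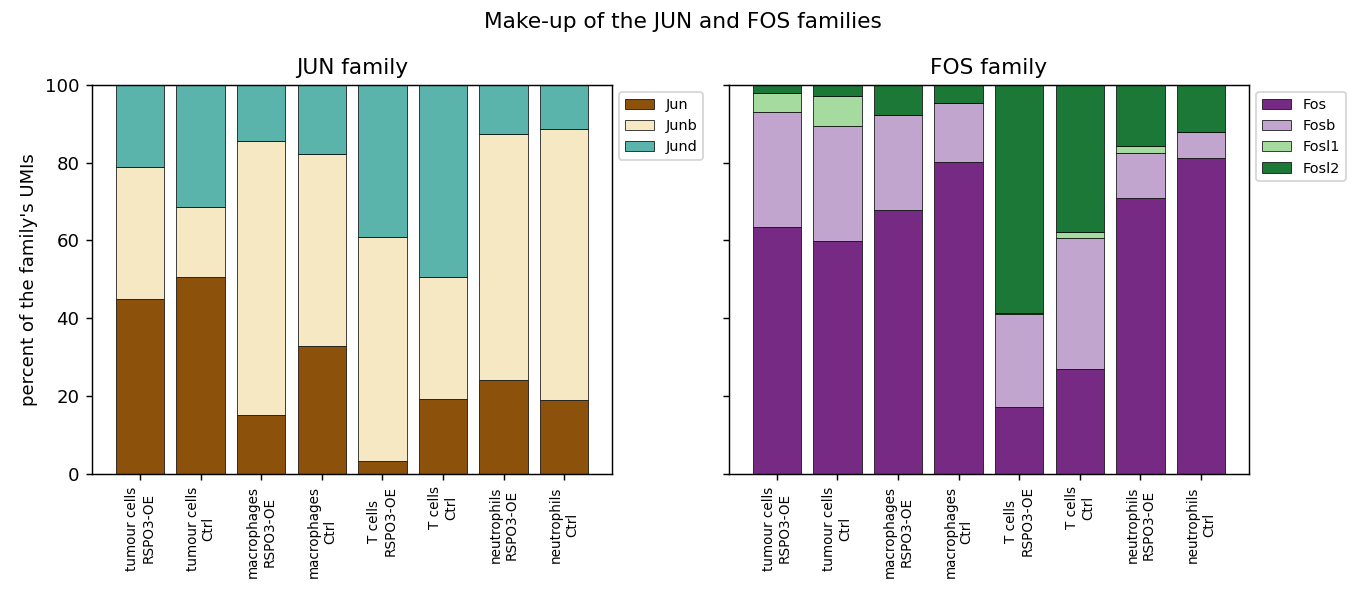
Make-up of the JUN family (left) and the FOS family (right) as percent of the family's UMIs (vertical), in tumour cells and in macrophages, T cells and neutrophils with Hmga2 at 0, for both libraries; 1 library per group, with no error drawn. Junb takes 33.8% against 18.1% of JUN UMIs in tumour cells and 57.5% against 31.4% in T cells. Fosl2 leads the FOS family only in T cells, in Ctrl with an interval that overlaps that of Fosb.

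The make-up of the families also differed between the classes. In macrophages without Hmga2, Junb made up 70.6% of JUN UMIs in RSPO3-OE and 49.4% in Ctrl, and Jun 15.1% and 32.7%. Fos made up 67.9% and 80.1% of FOS UMIs there, Fosb 24.4% and 15.3% and Fosl2 7.65% and 4.57%. In T cells without Hmga2, Fosl2 made up 58.6% and 37.9% of FOS UMIs and Fos 17.2% and 26.8%. In Ctrl the Fosl2 interval (33.3 to 42.7) overlapped that of Fosb, which made up 33.9% (29.4 to 38.6). Over all Ctrl T cells Fos led with 49.4%, and Fosl2 made up 17.0%. Tumour cells were the class with the most Fosl1, at 4.93% and 7.70% of FOS UMIs. In neutrophils Junb made up 63.2% and 69.5% of JUN UMIs, with overlapping intervals.

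The order of the classes was the same in both libraries for Fos, Fosl2, Jun, Junb, Atf3 and Ier2, with immune cells that carry Hmga2 left out. Fos, Junb and Atf3 were highest in neutrophils, then macrophages, tumour cells and T cells, with each neighbour's interval apart. Atf3 ran from 1263 to 24.8 CPM in RSPO3-OE and from 1629 to 14.2 CPM in Ctrl. Fosl2 had its highest level in neutrophils, then T cells, macrophages and tumour cells. Jun was highest in tumour cells, then neutrophils, macrophages and T cells. Ier2 was highest in tumour cells, then neutrophils, T cells and macrophages, but tumour cells and neutrophils overlapped in Ctrl. Fosb was highest in tumour cells in both libraries, with neutrophils overlapping its neighbours in Ctrl. Egr1 was highest in neutrophils and second in tumour cells, and T cells and macrophages overlapped in Ctrl. Jund was lowest in macrophages, and T cells and neutrophils overlapped in both libraries, as did tumour cells and neutrophils in RSPO3-OE. Fosl1 was highest in tumour cells in both libraries.

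The remaining genes of the pathway are given from lists by name, which were also chosen with earlier results of these data known. Among all genes with at least 10 UMIs, the shares past the same fold, higher then lower, were 13.3% and 17.0% in tumour cells. They were 11.0% and 8.56% in macrophages and 10.0% and 18.2% in T cells. Without cells carrying Hmga2 the T cell shares were 12.2% and 11.6%. Of 30 other immediate early genes, 19 were at least 1.5-fold higher in RSPO3-OE tumour cells and 0 lower, with a median log2 ratio of 0.73, and the same counts held in macrophages, with 0.79. In T cells 8 were higher and 9 lower, with -0.06, and without cells carrying Hmga2 13 and 5 of 29, with 0.52. The orphan nuclear receptors Nr4a3 (20.2 against 1.32 CPM, 3.94) and Nr4a2 (164 against 34.6 CPM, 2.25) and the phosphatase gene Dusp2 (17.8 against 1.89 CPM, 3.23) had the highest ratios in tumour cells. In macrophages these were Nr4a3 (107 against 7.89 CPM, 3.76), Nr4a2 (189 against 28.5 CPM, 2.73) and Egr2 (46.6 against 7.51 CPM, 2.63). Gadd45b (-0.27), Ccn1 (-0.10) and Klf6 (-0.05) were lowest in tumour cells.

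Genes upstream of the members, SRF, the ELK factors and the MAP kinases, stood near level. Of 21 measured, 0 were at least 1.5-fold higher in tumour cells and 1 was lower, Rps6ka1 at -0.71, and the median was -0.07. Of all genes 13.3% were higher and 17.0% lower there. In macrophages 2 were higher, Braf at 0.88 and Mapk8 at 0.75, against 11.0% of all genes, and the median was 0.20. Of 14 feedback genes, which damp ERK signalling or EGR factors, 4 were higher in tumour cells and 6 in macrophages, with medians of 0.14 and 0.44. The shares of all genes that were higher were 13.3% and 11.0%. Errfi1, an inhibitor of the EGF receptor, stood at 358 against 176 CPM in tumour cells, a log2 ratio of 1.02. The Sprouty gene Spry2 was at 0.83 there, and in macrophages the ERK phosphatase gene Dusp5 at 1.74. Of 23 further zipper factors, 4 were higher and 2 lower in tumour cells, against 13.3% and 17.0% of all genes, with a median of -0.03. Batf2 (1.18) and Crem (1.11) stood highest and Maf (-0.77) lowest, and in macrophages Crem stood at 1.88.

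Of 20 genes known as AP-1 targets, 12 were at least 1.5-fold higher in tumour cells and 3 lower, with a median of 0.70. Of all genes 13.3% were higher and 17.0% lower in tumour cells. In macrophages 6 of 18 were higher and 3 lower, with a median of 0.32, and without cells carrying Hmga2 6 and 5, with 0.20. The shares of all genes were 11.0% and 8.56%, and without such cells 10.8% and 9.01%. In T cells the list went the other way, with 1 of 16 higher, 10 lower and a median of -0.79. Without T cells carrying Hmga2, however, 3 of 11 were higher and 2 lower, with 0.40. The T cell shares of all genes were 10.0% and 18.2%, and without such cells 12.2% and 11.6%. The chemokine gene Ccl2 stood at 4131 against 1456 CPM in tumour cells, the EGF receptor ligand Areg at 19.9 against 6.84 CPM (1.54) and Il6 at 2.96 against 1.04 CPM (1.51). Spp1, osteopontin, stood lower in both classes, at -0.72 in tumour cells and -0.70 in macrophages. These genes have other regulators besides AP-1.

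Heat shock genes, which also respond to handling, had medians below 0 in tumour cells, macrophages and T cells and above 0 in neutrophils. Of 13, 1 was at least 1.5-fold higher and 5 lower in tumour cells, with a median of -0.31, and 1 and 3 in macrophages, with -0.10. Of all genes, 13.3% were higher and 17.0% lower in tumour cells, and 11.0% and 8.56% in macrophages. In T cells 0 of 12 were higher and 5 lower, with a median of -0.52, against 10.0% and 18.2% of all genes. In neutrophils 6 of 9 were higher and 2 lower, with 0.89, against 34.9% and 32.9%. Hspb1 (-4.20), Hspa1b (-3.02) and Hspa1a (-2.06) stood lowest in tumour cells, and Dnajb1 (0.61) was the one past 1.5-fold upward. Of 13 mitochondrially encoded transcripts, 4 were lower in tumour cells and 0 in macrophages, against 17.0% and 8.56% of all genes. How the levels of these lists bear on the members was not tested.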

How the data were processed

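The deposited files give a raw UMI count for each gene and barcode. The authors used Cell Ranger 3.0.1, per the labels, and mm10, per the submitters' processing notes. The header of the matrices names version 3.1.0. A cell needed at least 200 genes and at most 20% mitochondrial UMIs, which removed 150 RSPO3-OE and 311 Ctrl barcodes. Removed too were 171 and 95 doublets marked by Scrublet (scanpy 1.11.5, expected rate 0.05). Cells that passed more than 1 class rule (37 and 12) were left out. Python 3.11.15, numpy 2.4.6, scipy 1.17.1 and pandas 2.3.3 were used.

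CPM is the sum of a gene's UMIs over a class in a library, scaled by the class total. Intervals are exact at 95% (Poisson for CPM, binomial for log2 ratios, Clopper-Pearson for shares). With 1 library per group nothing was tested, and called means at least 1.5-fold with at least 10 UMIs. A sum of 0 was given the limit of 3 counts. The ratio step was tested on simulated data. Log-normalised values (per 10000 UMIs) were used for likeness, and genes entered it when found in at least 5% of cells of both libraries. For tumour cells, 1 gene among the first 10 is not reported here.

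The members and lists were chosen with earlier results of these data known. From each other list the text draws on the up to 3 genes with the highest and the up to 3 with the lowest ratio in tumour cells and macrophages, among genes with at least 100 UMIs. The alternatives changed the weight of cells, depth, scaling, denominator, filters, doublets and class rules. The splits by Hmga2, Cd8a, heat shock genes and Ly6c2, and the counts without Fosl1, were added after seeing the data. Coordinates of promoters are those of RefSeq on GRCm38.p6.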

Additional observations from a re-analysis of the deposited data

Results flagged for a closer look

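The ratios of Fos and Jun between the libraries had opposite signs in different cell classes, with intervals that left out 0. Fos had a log2 ratio (RSPO3-OE over Ctrl) of 1.18 in tumour cells and 0.62 in macrophages without Hmga2, and of -0.82 in neutrophils without Hmga2, which rest on 79 and 13 cells. Jun had a ratio of 0.31 in tumour cells and 0.61 in neutrophils, and of -0.52 in macrophages and -2.10 in T cells, all immune cells without Hmga2. Each class had 1 library per group, so the difference between classes was not tested. With doublets kept the Jun ratio over all T cells was -0.72. Over all neutrophils the Fos ratio was -0.05, and with doublets kept the macrophage Jun ratio was 0.01. The tumour cell Jun ratio did not keep its sign either. It was -0.20, 0.35 and 0.67 in cells of low, middle and high depth. By mitochondrial share it was 0.69, 0.55 and -0.16. When every tumour cell had equal weight, mean Jun was nearly level, 2588 CPM for RSPO3-OE against 2564 CPM for Ctrl.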

How the results depend on the processing

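No paired analysis was possible because each group had 1 library and no test was made, and for the same reason no replicate could be left out. In tumour cells the members' median log2 ratio, 1.05, became 0.83 as the mean of the cells' own CPM, 0.84 with cells thinned to 2000 UMIs, 1.15 with median-of-ratios scaling, 1.03 without mitochondrial transcripts, 1.09 at no more than 10% mitochondrial UMIs and 1.08 with stricter class rules. The count of members at least 1.5-fold higher there was 6 or 7 throughout. In macrophages the median, 0.90, became 1.05 with doublets kept and 1.05 with cells of more than 1 class kept. In T cells the median, -0.13, became 0.24 as the mean of the cells' own CPM, 0.60 with doublets kept (5 members higher in place of 2) and 0.12 in Cd8a-positive, Cd4-negative cells without Hmga2 (4 higher). In neutrophils the count of 5 members higher became 3 as the mean of the cells' own CPM, 3 with thinning, 3 with at least 500 genes per cell and 1 without Hmga2. Of ratios of at least 1.5-fold, signs reversed for Fosb in neutrophils (-0.16, the cells' own CPM), Jun in neutrophils (-0.064, thinned) and Fos in T cells (0.14 with doublets kept, 0.12 in Cd8a-positive cells, 0.032 without heat shock and Hmga2 cells); the cause was not tested. Of 414 alternatives for single members, 282 stayed within the counting interval, 127 moved and 5 reversed. Any change of sign, smaller ratios included, was found in 1 of 90 alternatives in tumour cells (Jund), 1 of 110 in macrophages (Jun, doublets kept), 19 of 118 in T cells and 11 of 96 in neutrophils. Moves of over 1.5-fold numbered 0, 1, 18 and 19 in these classes, and the largest move was 0.30, 0.68, 1.81 and 2.44 on the log2 scale. Members that were at least 1.5-fold higher in every alternative other than the added splits numbered 6 in tumour cells, 5 in macrophages, 2 in T cells and 1 in neutrophils. No share of all genes was computed for these alternatives. In the main setting 13.3%, 11.0%, 10.0% and 34.9% of all genes were that much higher in these classes. The neutrophil counts are therefore not read as a result about the members. Median-of-ratios scaling put the centre of all genes at -0.31 in neutrophils, over 148 genes. Depth limits the neutrophils most, with a median of 1624 and 1797 UMIs per cell.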
